A study of Mus musculus with 6 samples.

Results

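The metallothioneins, the zinc-sensing transcription factor Mtf1 and a set of zinc transporters were examined in whole pancreas of mice with a pancreatic deletion of Sirt1 exon 4 and of their controls. The set held 10 genes, and 9 of them had a value among the 22180 genes tested. Each was taken from a row (a transcript cluster, the group of probes for 1 transcribed unit) annotated with that symbol alone, and where a gene had more than 1 such cluster, the cluster was chosen by its mean over the 6 arrays. The list itself was put together with the higher Mt1 and Mt2 signals of these arrays already known, so the values of these genes are a description of the arrays and not an independent test. Slc30a1, the tenth gene, shared both of its clusters with 1700034H15Rik and was given no value of its own.

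Total RNA came from the whole pancreas of 6-month-old male mice, 3 of genotype Pdx1Cre;Sirt1ex4F/F (Sirt1-deficient) and 3 of genotype Pdx1Cre (control), with 1 array per mouse. The Cre transgene, driven by the promoter of Pdx1, is active in the progenitors of the exocrine and endocrine pancreas and was carried by both groups, whereas the floxed allele of Sirt1 exon 4 was present in the Sirt1-deficient mice only. Per the study's methods and discussion, the deletion leaves a truncated Sirt1 transcript and protein, and recombination by this Cre line is mosaic in exocrine tissue, so the Sirt1-deficient pancreas is neither free of Sirt1 RNA nor uniform. Levels are log2 array signals, so that a difference of 1 is a doubling, and signals of different genes cannot be set against each other because their probes differ. In tissue of mixed cells, less RNA per cell and fewer cells of a type cannot be told apart.

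Metallothioneins are small cysteine-rich proteins that bind zinc and copper. Mt1 and Mt2 are made in many tissues and are induced by metals, glucocorticoids, inflammation and oxidants, whereas Mt3 is best known from brain and Mt4 from stratified epithelium. When zinc in the cell rises, MTF1 binds metal response elements (MREs) in the promoters of Mt1, Mt2 and Slc30a1. Transporters of the Slc30 (ZnT) family carry zinc out of the cytosol, into vesicles or out of the cell, and those of the Slc39 (ZIP) family carry it in. The acinar cells of the pancreas take up zinc and secrete it with their digestive enzymes.

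To show the MRE letters that the genes carry, promoters were taken from RefSeq (mouse assembly GRCm38.p6) as the 250 bases before and the 50 bases after the annotated start. A window was found for 8 of the 10 genes. The 4 printed are those of Mt1, Mt2 and Slc30a2, the genes whose signal differed between genotypes, and that of Mt3, which lies beside Mt2 and did not pass the test. Each runs 5′ to 3′ on the strand of its gene, and capitals mark the MRE core, TGCACNC or TGCGCNC, on either strand.
Mt1, chr8:94178839-94179138, plus strand: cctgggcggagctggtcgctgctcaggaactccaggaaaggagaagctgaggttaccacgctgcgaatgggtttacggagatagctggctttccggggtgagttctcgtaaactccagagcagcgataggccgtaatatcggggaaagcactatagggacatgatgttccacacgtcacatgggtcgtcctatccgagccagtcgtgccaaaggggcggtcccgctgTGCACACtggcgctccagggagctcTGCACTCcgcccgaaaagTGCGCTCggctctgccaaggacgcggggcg
Mt2, chr8:94172368-94172667, plus strand: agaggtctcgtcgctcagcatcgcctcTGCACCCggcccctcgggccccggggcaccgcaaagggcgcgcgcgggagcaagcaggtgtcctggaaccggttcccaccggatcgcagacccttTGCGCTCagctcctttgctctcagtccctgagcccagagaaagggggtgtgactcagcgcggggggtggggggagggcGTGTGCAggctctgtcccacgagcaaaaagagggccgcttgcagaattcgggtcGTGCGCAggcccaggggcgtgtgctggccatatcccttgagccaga
Slc30a2, chr4:134343216-134343515, plus strand: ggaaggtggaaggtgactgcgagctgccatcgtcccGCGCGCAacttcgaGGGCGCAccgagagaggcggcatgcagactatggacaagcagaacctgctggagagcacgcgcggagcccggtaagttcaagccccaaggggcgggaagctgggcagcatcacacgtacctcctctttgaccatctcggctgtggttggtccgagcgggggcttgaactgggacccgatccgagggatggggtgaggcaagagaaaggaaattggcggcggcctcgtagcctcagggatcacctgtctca
Mt3, chr8:94152357-94152656, plus strand: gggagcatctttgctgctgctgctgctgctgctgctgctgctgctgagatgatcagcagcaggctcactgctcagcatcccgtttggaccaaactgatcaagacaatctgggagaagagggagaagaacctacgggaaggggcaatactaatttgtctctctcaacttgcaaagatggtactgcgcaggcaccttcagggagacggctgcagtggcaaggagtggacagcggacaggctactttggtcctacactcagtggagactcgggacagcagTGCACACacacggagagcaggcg

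In these windows, Mt2 held 4 MRE cores, Mt1 held 3, Slc30a2 held 2 and Mt3 held 1. Positions count the first base of the annotated transcript as 1, and cores outside these windows or at other starts were not examined. The cores of Mt1 began at -23, 3 and 21, and those of Mt2 at -223, -128, -50 and 5. The cores of Slc30a2 began at -214 and -200. Of 32841 mouse promoters of the same length, 25.7% held at least 1 core, 7.12% at least 2, 1.97% at least 3 and 0.518% at least 4. Slc30a1 held 2 cores, Mt4 held 1, Mtf1 held 0, and the promoters of Slc39a5 held 1 and 0. No core overlapped another core. In Mt1, 1 core overlapped a GC box (GGGCGG, either strand, present in 35.7% of promoters). The antioxidant core TGACNNNGC was present in Mt2, Slc30a1 and 1 of the Slc39a5 promoters, and in 12.4% of promoters, and the STAT letters TTCNNNGAA were in none of the windows of these genes but in 8.3% of promoters. A match is a run of letters and not a measured binding site.

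Of the 9 measured genes, Mt1, Mt2 and Slc30a2 rose in the Sirt1-deficient pancreata at the unadjusted p of 0.01 that the study used with limma, and none of the 9 fell. None of the 9 passed an adjusted p of 0.05 by limma, and at an unadjusted p of 0.05 the same 3 passed. Over all genes tested, 361 of 22180 (1.63%) passed p 0.01, with 164 higher (0.739%) and 197 lower (0.888%), and 3 passed the adjusted threshold. The arrays of the groups did not overlap for the same 3 of the 9 genes, and for 2603 of all genes (11.7%). The median log2 fold change was 0.01 over the 9 genes and -0.02 over all genes.

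Mt1 had log2 signals of 9.70, 9.34 and 9.29 in the Sirt1-deficient pancreata, against 8.48, 8.27 and 8.18 in the control pancreata. All Sirt1-deficient arrays lay above all control arrays, with a gap of 0.81 between the groups, and Sirt1-deficient 1 was the highest. The means were 9.44 ± 0.22 in Sirt1-deficient and 8.31 ± 0.15 in control pancreata (SD, n = 3 each). Mt1 was thus 2.19-fold higher (log2 fold change 1.13, SE 0.14, 95% interval 0.82 to 1.45; limma adjusted p = 0.0722), which placed it at rank 4 of all genes by p. In the upward direction, 12 genes had a larger log2 fold change than Mt1, and larger falls were not counted.

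Mt2 had log2 signals of 11.29, 11.30 and 11.29 in the Sirt1-deficient pancreata, against 10.39, 10.40 and 10.60 in the control pancreata. The Sirt1-deficient arrays lay almost on top of each other and above every control array, by a gap of 0.69. The means were 11.29 ± 0.01 in Sirt1-deficient and 10.46 ± 0.12 in control pancreata (SD, n = 3 each). Mt2 was 1.78-fold higher (log2 fold change 0.83, SE 0.11, 95% interval 0.59 to 1.07; limma adjusted p = 0.0722), at rank 5 of all genes by p. In the exact permutation test over the 6 arrays, the two-sided p was 0.1 for Mt1 and for Mt2, the smallest that 3 against 3 arrays allow. Mt1 and Mt2 are close in sequence, and whether probes of either cluster also bind RNA of the other gene was not tested.

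The remaining metallothioneins, encoded next to Mt2 on mouse chromosome 8, did not pass the test. Mt3 had 5.28, 5.24 and 5.19 in the Sirt1-deficient pancreata, against 5.15, 5.23 and 5.31 in the control pancreata. The groups overlapped, and the 95% interval of its log2 fold change was -0.22 to 0.24. Mt4 had 3.64, 3.30 and 3.00 in the Sirt1-deficient pancreata, against 3.82, 3.76 and 3.47 in the control pancreata. These groups also overlapped (log2 fold change -0.37, 95% interval -0.75 to 0.01, limma adjusted p = 0.761). Mt4 was the only gene of the 9 whose mean lay below 4.66, the 95th percentile of the 1105 olfactory receptor genes on the array, which are taken as not expressed in pancreas. Without Sirt1-deficient 1, Mt4 passed p 0.01 as lower (log2 fold change -0.53, adjusted p = 0.873).

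Mtf1, the transcription factor that senses zinc, had 6.13, 6.20 and 6.24 in the Sirt1-deficient pancreata, against 6.30, 6.08 and 6.09 in the control pancreata. The groups overlapped (log2 fold change 0.03, 95% interval -0.21 to 0.28, limma adjusted p = 0.985). These are transcript signals, and neither MTF1 protein nor zinc was measured on the arrays.

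**Figure D1:**
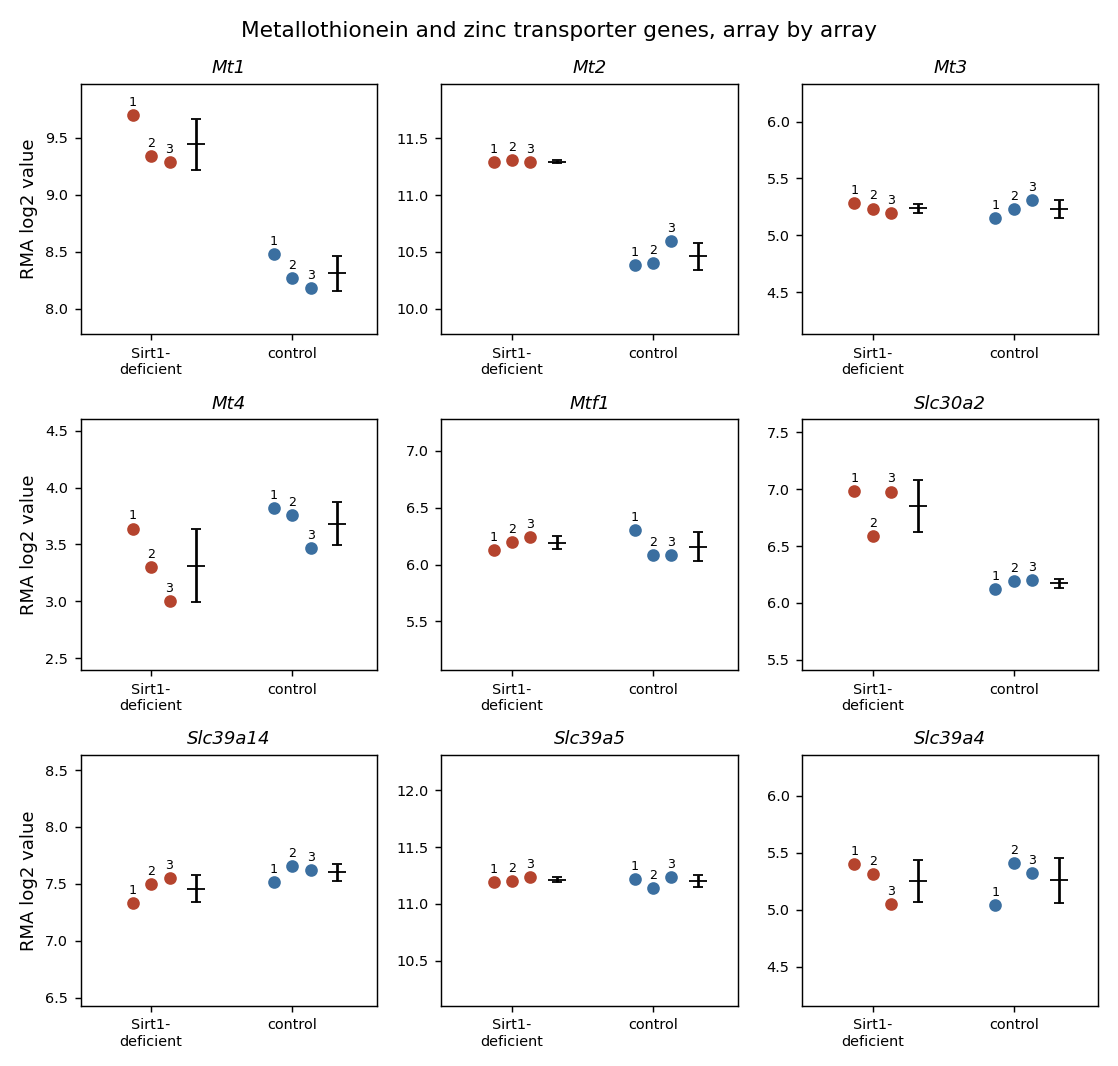
Log2 array signal (vertical axes) of the 9 measured genes, 1 panel per gene, with Sirt1-deficient pancreata on the left and control pancreata on the right. Points are single arrays and bars are the mean and SD (n = 3 each); Mt1, Mt2 and Slc30a2 are the genes in which the groups do not overlap.

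Among the zinc transporters, Slc30a2 rose. It encodes the exporter that loads zinc into secretory vesicles, found in acinar cells on the membrane of the zymogen granule. Slc30a2 had log2 signals of 6.98, 6.59 and 6.98 in the Sirt1-deficient pancreata, against 6.13, 6.19 and 6.20 in the control pancreata. Sirt1-deficient 2 was lower than the other Sirt1-deficient arrays but still 0.39 above the highest control. The means were 6.85 ± 0.23 in Sirt1-deficient and 6.17 ± 0.04 in control pancreata (SD, n = 3 each). Slc30a2 was 1.6-fold higher (log2 fold change 0.68, SE 0.13, 95% interval 0.39 to 0.97; limma adjusted p = 0.236), at rank 42 of all genes by p.

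The measured importers of the set did not pass the test. Slc39a5, an importer on the basolateral side of acinar cells, had 11.20, 11.20 and 11.24 in the Sirt1-deficient pancreata, against 11.22, 11.14 and 11.24 in the control pancreata. The groups overlapped, and the 95% interval of its log2 fold change was -0.21 to 0.24. Slc39a14, which also carries iron and manganese, had 7.33, 7.50 and 7.55 in the Sirt1-deficient pancreata, against 7.52, 7.66 and 7.63 in the control pancreata. Its groups overlapped (log2 fold change -0.14, 95% interval -0.39 to 0.10, limma adjusted p = 0.876). Slc39a4, the importer that takes up dietary zinc in the intestine, had 5.40, 5.31 and 5.05 in the Sirt1-deficient pancreata, against 5.04, 5.41 and 5.32 in the control pancreata. Its groups overlapped too, and its 95% interval was -0.32 to 0.31.

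Neither of the clusters annotated with both Slc30a1 and 1700034H15Rik can be assigned to either gene. In the brighter of them the signal was 7.33, 7.05 and 7.28 in the Sirt1-deficient pancreata, against 6.85, 6.82 and 6.77 in the control pancreata. The groups did not overlap (log2 fold change 0.41, SE 0.12; limma adjusted p = 0.717 in a fit over all 41345 clusters, of which 1.39% passed p 0.01). In the dimmer cluster the log2 fold change was -0.02 and the groups overlapped.

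Other members of the transporter families were taken from a list of zinc exporters and importers. Of 7 other exporters and 11 other importers with a value, none passed p 0.01, 14 of the 18 log2 fold changes were negative, beside 54.9% of all genes, and the median log2 fold changes were -0.07 for exporters and -0.10 for importers, beside -0.02 for all genes. The exporter median was -0.17 without Sirt1-deficient 2 or without control 1, and the importer median was -0.06 without control 3. Slc30a5, which with Slc30a6 loads zinc into the early secretory pathway, had 7.88, 7.91 and 8.17 in the Sirt1-deficient pancreata, against 8.65, 8.10 and 8.55 in the control pancreata (log2 fold change -0.45, 95% interval -0.81 to -0.10, limma adjusted p = 0.65). Its groups overlapped through Sirt1-deficient 3 and control 2. Slc30a7, an exporter of the same compartment, had 7.55, 7.35 and 7.54 in the Sirt1-deficient pancreata, against 7.94, 7.62 and 7.92 in the control pancreata (log2 fold change -0.35, 95% interval -0.63 to -0.07, limma adjusted p = 0.66). These groups lay 0.07 apart. Both genes passed p 0.01 as lower when control 2 was left out (log2 fold change -0.62 for Slc30a5 and -0.45 for Slc30a7).

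Slc30a8, the exporter of the insulin granule, had 5.07, 5.87 and 5.71 in the Sirt1-deficient pancreata, against 6.16, 5.39 and 6.43 in the control pancreata. The groups overlapped widely (log2 fold change -0.45, SE 0.28, limma adjusted p = 0.843). Single arrays moved this value, to -0.21 without Sirt1-deficient 1, -0.23 without control 3 and -0.75 without control 2, and it did not pass p 0.01 in any of these. Slc30a3, Slc30a4, Slc30a6 and Slc30a9 had log2 fold changes between -0.07 and 0.04. Among the other importers the range was -0.36 to 0.16. The lowest of these was Slc39a10, with 4.79, 5.31 and 5.02 in the Sirt1-deficient pancreata, against 5.34, 5.58 and 5.28 in the control pancreata (limma adjusted p = 0.714). The groups overlapped, and without Sirt1-deficient 2 it passed p 0.01 (log2 fold change -0.50).

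**Figure D2:**
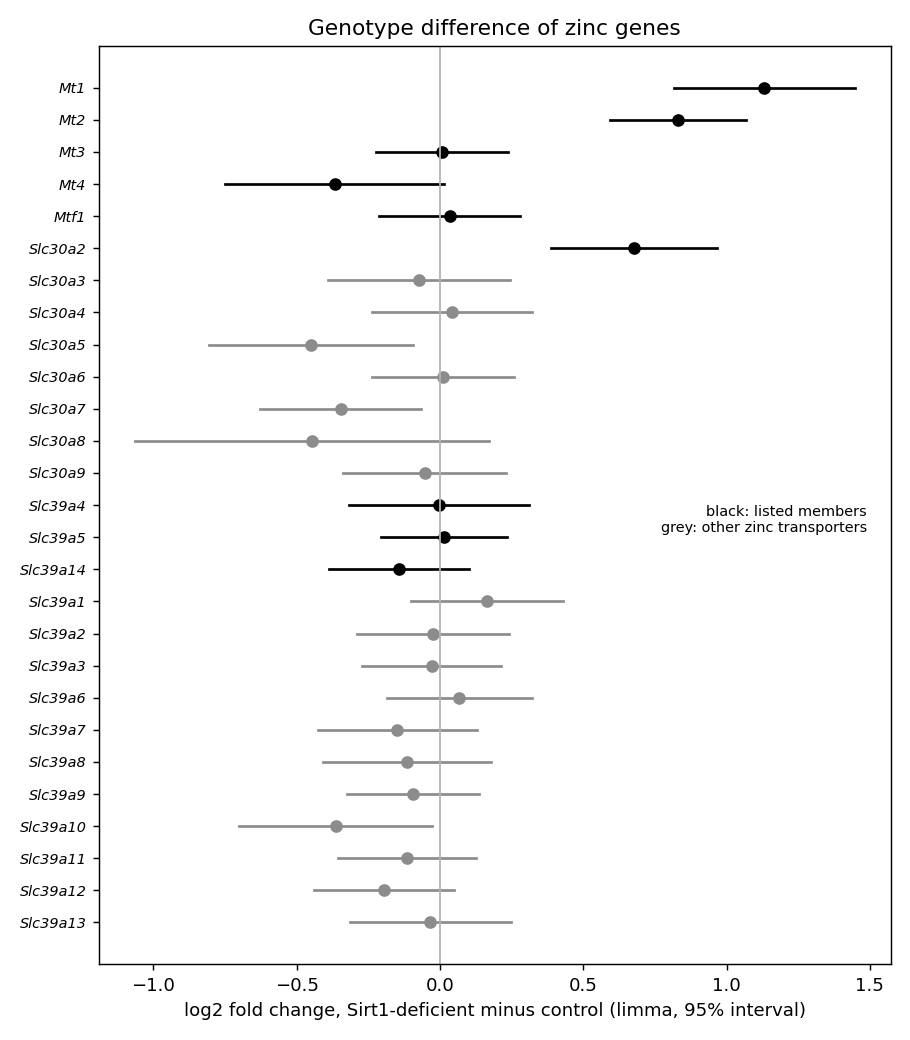
Log2 fold change, Sirt1-deficient minus control (horizontal axis), of the 9 genes of the set in black and the 18 other zinc transporters in grey, with limma 95% intervals. Mt1 (1.13), Mt2 (0.83) and Slc30a2 (0.68) lie to the right of 0, and 14 of the 18 other transporters lie to the left of it.

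Among 8 other genes known as targets of MTF1, 1 rose and none fell, beside 0.739% and 0.888% of all genes. The median log2 fold change was 0.07. Hamp, a gene of this list, was dim, with a mean signal of 1.93 in Sirt1-deficient and 1.78 in control pancreata. Without Sirt1-deficient 2, where Slc40a1 also rose and Slc39a10 fell, the median was -0.01, and without control 2 it was 0.02. It was higher, at 0.15, without Sirt1-deficient 3 and at 0.11 without control 1. The list was not split into genes that MTF1 induces and genes that it represses, so its median has no single expected direction. The gene that rose in the comparison of all arrays was Ndrg1, a stress-responsive gene that is also induced by low oxygen. Ndrg1 had 10.33, 9.94 and 10.14 in the Sirt1-deficient pancreata, against 9.29, 9.24 and 9.60 in the control pancreata. The groups did not overlap, and Ndrg1 was 1.7-fold higher (log2 fold change 0.76, SE 0.14; limma adjusted p = 0.233). Slc40a1, the iron exporter ferroportin, had a log2 fold change of 0.39 (limma adjusted p = 0.783), and without Sirt1-deficient 2 it passed p 0.01 (log2 fold change 0.61). Gclc, an enzyme of glutathione synthesis, had a log2 fold change of -0.27 (limma adjusted p = 0.843), and for Selenow and Csrp1 the values were 0.07 and 0.08. No measured member of the lists for copper handling (14 genes, median log2 fold change -0.07) or zinc carboxypeptidases (7 genes, median 0.03) passed p 0.01. Cpe, which processes prohormones in endocrine cells, passed as lower without control 2 (log2 fold change -0.64, against -0.28 with all arrays).

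**Figure D3:**
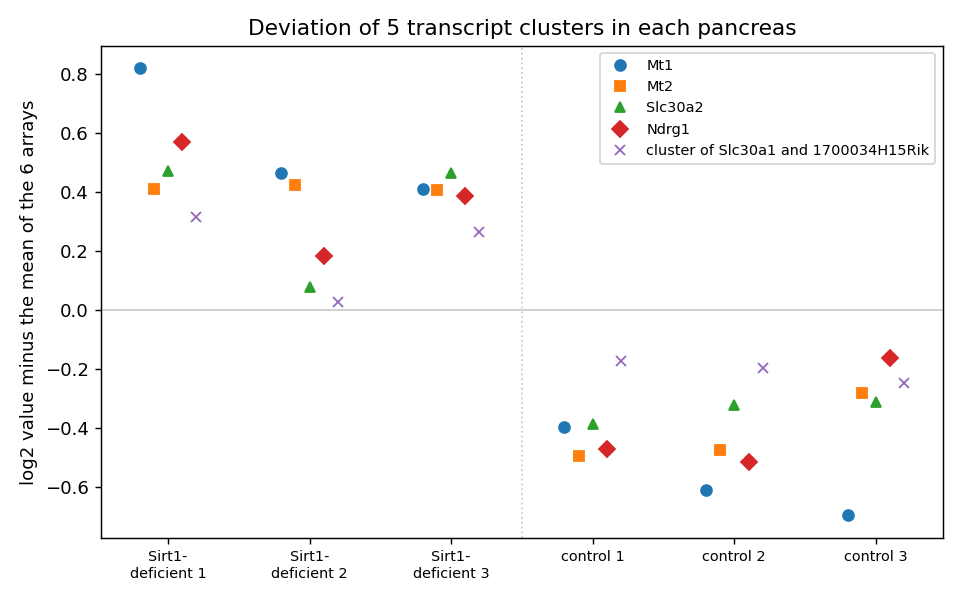
Log2 signal minus the gene's mean over the 6 arrays (vertical axis) in each pancreas (horizontal axis). Plotted are Mt1, Mt2, Slc30a2, Ndrg1 and the cluster shared by Slc30a1 and 1700034H15Rik. They were picked because all Sirt1-deficient arrays lay above all control arrays. Slc30a7 and Slc39a12, whose Sirt1-deficient arrays all lay below the control arrays, are not plotted. All 5 lie above 0 in each Sirt1-deficient pancreas and below 0 in each control pancreas, which largely follows from that choice. Mt1 deviates most in Sirt1-deficient 1, where Mt2 does not stand out.

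Genes that answer other known inducers of Mt1 and Mt2 were listed in the same way. Their counts stand beside 0.739% of all genes that rose and 0.888% that fell. Of 15 glucocorticoid-responsive genes with a value none rose and 1 fell, Dusp1, a phosphatase that acts on MAP kinases. Dusp1 had 5.82, 6.17 and 6.07 in the Sirt1-deficient pancreata, against 6.91, 6.93 and 6.36 in the control pancreata (log2 fold change -0.72, limma adjusted p = 0.393). The median of the list was -0.14 on the log2 scale, and its mean signal per array was 6.13 to 6.33 in Sirt1-deficient and 6.34 to 6.47 in control pancreata. Of 20 genes of the acute phase and STAT3 response, 1 rose and none fell (median log2 fold change -0.06). That gene, Orm1, was dim, with a mean signal of 4.36 in Sirt1-deficient and 3.87 in control pancreata (limma adjusted p = 0.607), and it passed p 0.01 in only 1 of the 6 fits that left out an array. Junb, an early-response transcription factor of the same list, had a log2 fold change of -0.36 (limma adjusted p = 0.64), and it passed p 0.01 as lower with the filter on dim genes, with the intensity trend and without control 3. Of 13 antioxidant genes regulated by NRF2, none rose and 1 fell (median log2 fold change -0.09). Slc7a11, the cystine transporter, had signals of 6.99 to 7.42 in the Sirt1-deficient pancreata, against 7.72 to 8.25 in the control pancreata (log2 fold change -0.91, limma adjusted p = 0.236). These values are from its brightest cluster, and with the mean of all its clusters the log2 fold change was -0.54.

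The genes beside Mt2 and Mt1 on chromosome 8 were examined next, because RefSeq lists 0 genes between the pair and many near it. Of the 5 measured genes on either side, 10 in all with Mt4 and Mt3 among them, none rose and 1 fell. Over all genes, 0.739% rose and 0.888% fell. Nup93, the nearest measured gene beyond Mt1, had a log2 fold change of 0.10. The gene that fell was Herpud1, a gene of the endoplasmic reticulum stress response, with 10.80, 11.09 and 10.96 in the Sirt1-deficient pancreata, against 11.47, 11.31 and 11.58 in the control pancreata. The groups did not overlap (log2 fold change -0.50, SE 0.12, limma adjusted p = 0.409). It did not pass p 0.01 without Sirt1-deficient 1 or without control 3.

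**Figure D4:**
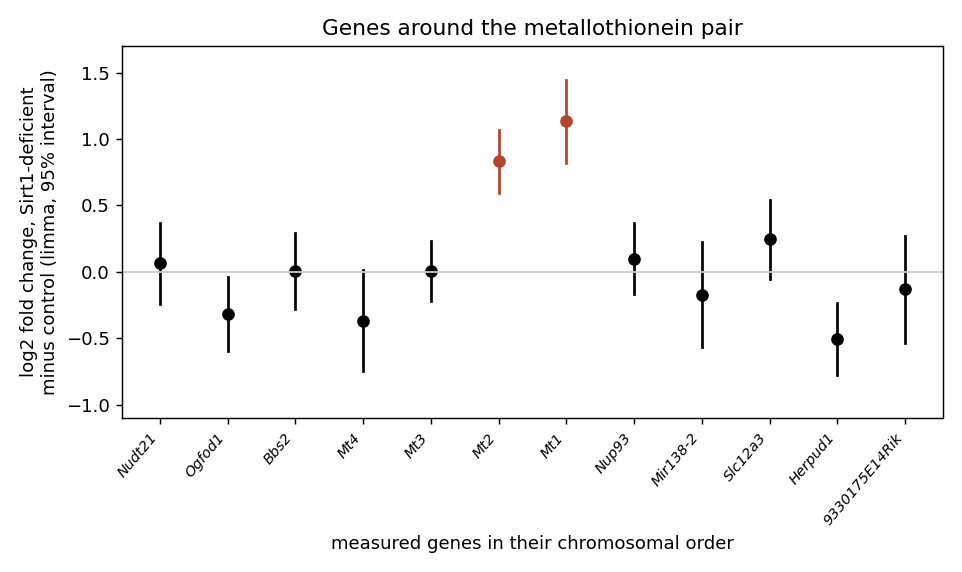
Log2 fold change, Sirt1-deficient minus control (vertical axis), with limma 95% intervals, for Mt2 and Mt1 (red) and the 5 measured genes on each side of them (black), spaced by their order on the chromosome and not by distance. Mt2 (0.83) and Mt1 (1.13) lie above 0, and of the 10 genes around them only Herpud1 (-0.50) passed p 0.01.

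Markers of the cells of the pancreas were compared beside these values, again with 0.739% of all genes higher and 0.888% lower past p 0.01. The 9 measured acinar markers had mean signals of 12.07 to 12.10 in Sirt1-deficient and 12.05 to 12.07 in control pancreata, and none passed p 0.01. Ptf1a, a transcription factor of acinar cells, had a log2 fold change of 0.31 (limma adjusted p = 0.64), and it passed p 0.01 as higher with the filter on dim genes, the intensity trend and array weights. Of 12 islet markers, Ppy and Isl1 fell and none rose, with list means of 6.80 to 7.13 in Sirt1-deficient and 6.92 to 7.43 in control pancreata. Without control 2 or without Sirt1-deficient 2, 3 islet markers passed as lower. Of 8 endothelial markers, Emcn rose (log2 fold change 0.44, limma adjusted p = 0.6), with list means of 6.07 to 6.11 in Sirt1-deficient and 5.82 to 6.00 in control pancreata. The median log2 fold change of this list was 0.20, beside -0.02 over all genes. Kdr, another endothelial marker, had a log2 fold change of 0.37 (limma adjusted p = 0.66). It passed p 0.01 as higher with a second quantile normalization and without control 3. Isl1 and Emcn each passed in only 2 of the 6 fits that left out an array. No duct, macrophage, lymphocyte, fibroblast, adipocyte or neuronal marker passed p 0.01, and the list means of macrophages (5.66 to 6.16 in Sirt1-deficient, 5.87 to 5.97 in control pancreata) and of fibroblasts (6.58 to 6.76 in Sirt1-deficient, 6.72 to 6.82 in control pancreata) overlapped between genotypes. Csf1r, a macrophage marker, passed as lower without Sirt1-deficient 3 (log2 fold change -0.47). The part of the acinar, endothelial and islet markers in the Mt1, Mt2 and Slc30a2 values was not tested.

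Across the series, Sirt1 itself had 5.59, 5.69 and 5.83 in the Sirt1-deficient pancreata, against 5.84, 5.78 and 5.80 in the control pancreata. The groups overlapped (log2 fold change -0.11, limma adjusted p = 0.916), so this signal does not by itself bear out the labels. By RT-qPCR, the study reported lower Sirt1 expression in total pancreas and in isolated islets. Which exons the probes of this cluster cover was not examined, and the cause of the difference from RT-qPCR was not tested. The 6 arrays correlated with each other at 0.974 to 0.984 over all genes. The first principal component (28.9% of the variance) did not separate the genotypes, with Sirt1-deficient 1, Sirt1-deficient 2 and control 2 on the same side. The second (24.7%) did, with all Sirt1-deficient arrays on one side and all control arrays on the other.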

How the data were processed

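Whole-pancreas RNA of 3 Pdx1Cre;Sirt1ex4F/F and 3 Pdx1Cre mice was hybridised to Affymetrix Mouse Gene 2.0 ST arrays, 1 per sample. The authors deposited log2 signals normalized by RMA (background correction, quantile normalization and probe summary), which narrows differences between arrays and can compress large fold changes. No scanner files were used, so batch by slide or scan was not analysed here. Array data hold no read depth, and 3 arrays per group limit the precision. The labels number the mice but name no litter or batch.

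Of 41345 transcript clusters, 23521 carried exactly 1 gene symbol in the platform annotation (1820 several, 16004 none), and 1 cluster per gene, the 1 with the highest mean, gave 22180 genes. Groups were compared with limma 3.58.1 (R 4.3.3; lmFit, eBayes; Benjamini-Hochberg over all genes), with an exact permutation test beside single genes. The threshold was the study's unadjusted p of 0.01. Genes under the mark set by olfactory receptor genes (their 95th percentile) were called dim. The script was checked on simulated data. Named genes were the listed members, genes of the other lists past p 0.01, the 3 genes nearest to Mt1 and to Mt2 over the arrays, and chromosomal neighbours past p 0.01; further genes of the lists were named after their values were seen. The members, lists and tests were chosen with earlier results of these data known. Motifs were searched on both strands of RefSeq promoters (GRCm38.p6).

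Alternatives were centring of arrays, a second quantile normalization, a filter on dim genes, array weights, robust moderation along a trend with intensity, replicate number as a block, other choices of cluster, and leaving out each array.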

Additional observations from a re-analysis of the deposited data

Results flagged for a closer look

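The brighter transcript cluster annotated with both Slc30a1 and 1700034H15Rik was not part of the comparison of genes and was examined because its Sirt1-deficient arrays all lay above its control arrays. Its mean was 7.22 ± 0.15 in Sirt1-deficient and 6.81 ± 0.04 in control pancreata (SD, n = 3 each), a log2 difference of 0.41. Groups of 3 arrays are too small for a test of single outlying arrays.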

How the results depend on the processing

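Mt1, Mt2 and Slc30a2 kept their direction and passed p 0.01 in all 14 alternatives planned for each, with log2 fold changes of 1.00 to 1.22, 0.79 to 0.90 and 0.61 to 0.81. Part of this was fixed in advance. Each gene had 1 cluster with its symbol alone, so the other choices of cluster used the same values. The filter, the intensity trend and the block leave a log2 fold change as it is. Where groups do not overlap, leaving out 1 array cannot reverse the direction. The adjusted p of these genes depended on the setting. By limma, Mt1 reached 0.0495 with each array centred on its median, 0.0209 with the filter on dim genes and 0.00323 with the intensity trend. Mt2 reached 0.0209 with the filter and 0.000838 with the trend. Leaving out 1 array gave 0.131 to 0.212 for Mt1 and 0.141 to 0.328 for Mt2. The adjusted p was highest in the unplanned fit over all transcript clusters, at 0.44 for Mt1 and 0.44 for Mt2. The count of genes past p 0.01 was 361, and 248 to 472 when 1 array was left out. It was 574 over all transcript clusters, an alternative chosen after seeing the data, 1477 at p 0.05 and 3 at an adjusted p of 0.05. Deviations from the group means correlated at 0.16 between samples of number 2 and at 0.16 between those of number 3, but at -0.11 between those of number 1, so the numbers were not taken to pair the samples. With the replicate number as a block 373 genes passed p 0.01 and Isl1 and Emcn did not; the log2 fold changes were 1.13 for Mt1 and 0.83 for Mt2 (limma adjusted p = 0.0622 and 0.192).

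Genes near 0 changed sign. Leaving out 1 array, Mt3 ranged over -0.0319 (without control 1) to 0.0456 and was at -0.0149 without Sirt1-deficient 1. Mtf1 ranged over -0.0045 (without control 2) to 0.1075 and was at -0.0007 without control 3. Slc39a5 was at -0.0032 with a second quantile normalization, -0.0053 with array weights, and ranged over -0.0153 (without control 2) to 0.0336 without 1 array. Slc39a4 was at 0.011 with centring, 0.0124 with a second quantile normalization and 0.0643 with array weights, and ranged over -0.11 to 0.0985 without 1 array, with 0.0985, 0.0729 and 0.0292 without Sirt1-deficient 3, without control 2 and without control 3. Slc30a5 and Slc30a7 passed p 0.01 as lower with a second quantile normalization (log2 fold changes of -0.45 and -0.35), the intensity trend (-0.45 and -0.35) and array weights (-0.56 and -0.40). Dusp1 did not pass without control 2. The cause of these changes was not tested.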

Other observations

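The genes whose pattern over the 6 arrays was most like that of Mt1 and of Mt2 were found by the root mean square difference of log2 values centred on each gene's mean, with names of predicted, microRNA and chemosensory receptor genes left out. Nearest to Mt1 were Rpl3, a protein of the large ribosomal subunit (0.16), Apol7b (0.19) and Scgb2b2 (0.20). Apol7b and Scgb2b2 were dim, with mean signals over the 6 arrays under the mark set by olfactory receptor genes. Rpl3 had 10.41, 10.34 and 10.03 in the Sirt1-deficient pancreata, against 9.26, 9.19 and 9.36 in the control pancreata. The groups did not overlap. Nearest to Mt2 were Smim24 (0.12), Ndrg1 (0.13) and Alad (0.13), the zinc-dependent enzyme of heme synthesis that forms porphobilinogen. Alad had 8.80, 9.08 and 9.22 in the Sirt1-deficient pancreata, against 8.25, 8.21 and 8.37 in the control pancreata, again without overlap. Among the 22179 other genes, Mt2 ranked 9 and Slc30a2 ranked 20 by nearness to Mt1, while Mt1 ranked 125 and Slc30a2 ranked 16 by nearness to Mt2. The points of this measure are the same 6 arrays, and genes that differ between genotypes by a like amount come out near each other.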
